A study of Oryctolagus cuniculus with 20 samples.

Results

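HNRNPA2B1, HNRNPA3 and HNRNPH3 encode heterogeneous nuclear ribonucleoproteins (hnRNPs), and their RNA was described in tricuspid valves of rabbits treated with serotonin, pergolide or dexfenfluramine. These 3 genes were chosen by their fall after both drugs in the study, from a list that leaves out genes called for serotonin. The choice thus also favours a small difference between serotonin and non-treated valves. The comparisons of these genes between groups describe that choice and carry no test. The 3 symbols correspond to 4 rows among the 23669 genes of the counts, because HNRNPA3 holds 2 rows, and all 4 rows passed the filter on low counts that left 8683 genes to test. HNRNPA2B1 is ENSOCUG00000026859, HNRNPH3 is ENSOCUG00000004443, and the HNRNPA3 rows are ENSOCUG00000002743 (the first row below) and ENSOCUG00000029392 (the second row). Symbols come from the study's own lists of changed genes, which were matched to 3582 gene ids. In the list the id of the second HNRNPA3 row has lost its zeros, and it fits a single id of the counts.

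The study asked what oral serotonin and 2 drugs with known valvular toxicity do to heart valves. Total RNA from the tricuspid valve of 20 female New Zealand white rabbits was sequenced, with 5 rabbits in each of 4 groups, 8 weeks old at the start and treated for 16 weeks. The non-treated rabbits drank water, and the others took serotonin at 80 mg/kg/day, pergolide, an ergot-derived dopamine receptor agonist, at 0.5 mg/kg/day, or dexfenfluramine, an appetite suppressant that releases serotonin, at 20 mg/kg/day by the sample labels. The study's text does not give the dexfenfluramine dose uniformly, and the dose of the labels is used here. Each valve came from a separate rabbit, and whole valves were used, so all of their cell types are mixed.

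hnRNP proteins bind nascent transcripts and take part in splicing, mRNA export, stability and translation. The A/B proteins HNRNPA2B1 and HNRNPA3 carry paired RNA recognition motifs followed by a glycine-rich tail, and they often act against SR proteins in the choice of splice sites. HNRNPH3 belongs to the H/F proteins, whose quasi-RNA recognition motifs bind runs of guanines.

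Total counts ran from 3247091 to 5921025 per valve, and the hnRNP rows held 355 to 2082 counts in each. The gene with the most counts took 40.7% ± 7.39 (SD, n = 5) of the counts in non-treated valves, 35.9% ± 4.07 (SD, n = 5) with serotonin, 32.9% ± 2.13 (SD, n = 5) with pergolide and 29.1% ± 5.65 (SD, n = 5) with dexfenfluramine. Values are given as CPM, the usual measure of a gene's count relative to the library's total, after scaling by the trimmed mean of M values (TMM), which sets most genes level between valves. The TMM factors ran from 0.584 to 1.25 in non-treated valves and from 0.66 to 1.105 with serotonin. They ran from 0.99 to 1.26 with pergolide and from 1.08 to 1.72 with dexfenfluramine. The ranges overlapped, and the highest non-treated factor was that of valve 3. These differences in composition matter for the fold changes below.

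The labelled tissue was checked against marker genes, of which only those in the study's lists of changed genes could be matched. For valvular interstitial cells 7 of 10 markers were found, none was at 0 in any valve, and VIM, an intermediate filament of mesenchymal cells, was the most abundant. For cardiomyocytes 7 of 12 were found, led by TTN, the giant spring protein of the sarcomere, with none at 0, so that the valves held much heart muscle RNA. PECAM1 led the 2 of 7 endothelial markers and DES the 3 of 6 smooth muscle markers. ADIPOQ led the 3 of 8 adipocyte markers, 1 of which was at 0 in dexfenfluramine valve 3, and MCM2 was the only 1 of 8 markers of dividing cells. No symbol could be matched for the macrophage and erythroid lists, which were not analysed here.

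HNRNPA2B1, which has been described as a reader of methylated adenosine and helps to sort RNA into exosomes, stood at 297, 240.1, 269.5, 268 and 241 CPM in non-treated valves 1 to 5. In the serotonin valves it stood at 271, 309, 235, 258 and 279.5 CPM. The serotonin values spread on both sides of the non-treated values, and the groups overlapped. With pergolide HNRNPA2B1 stood at 114, 129, 143.5, 140 and 131.5 CPM. With dexfenfluramine it stood at 139, 140.6, 131, 146.5 and 146 CPM. Every valve of both drug groups lay below every non-treated and every serotonin valve, while the drug groups overlapped with each other. The means were 263 ± 23.5 CPM (SD, n = 5) without treatment, 270.5 ± 27.4 CPM (SD, n = 5) with serotonin, 131.6 ± 11.5 CPM (SD, n = 5) with pergolide and 140.7 ± 6.17 CPM (SD, n = 5) with dexfenfluramine.

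On the log2 scale the difference of HNRNPA2B1 from non-treated valves was 0.04 ± 0.08 (SE) with serotonin, -0.999 ± 0.08 (SE) with pergolide and -0.90 ± 0.08 (SE) with dexfenfluramine. The order of its levels was serotonin, non-treated, dexfenfluramine and pergolide, and the values overlapped within the first pair and within the last pair. In whole valves, fewer cells that hold an RNA and less of that RNA per cell cannot be told apart.

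HNRNPA3, a close relative of HNRNPA2B1, gave 360, 300, 365.5, 378 and 332.5 CPM in non-treated valves 1 to 5 at its first row. In the serotonin valves this row gave 373, 354, 401, 391.5 and 443 CPM. Serotonin valves 3, 4 and 5 lay above all non-treated valves, and the other serotonin valves lay among them. With pergolide the first row gave 208, 220.2, 191, 185 and 195 CPM. With dexfenfluramine it gave 171.5, 189.9, 187, 197 and 182 CPM. All 10 drug valves lay below all non-treated and serotonin valves, and the pergolide and dexfenfluramine values overlapped. The first row differed from non-treated valves by 0.18 ± 0.08 (SE) on the log2 scale with serotonin, by -0.80 ± 0.08 (SE) with pergolide and by -0.91 ± 0.08 (SE) with dexfenfluramine.

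The second HNRNPA3 row gave 128.1, 136, 128.5, 124 and 118 CPM in non-treated valves 1 to 5. In the serotonin valves it gave 153.5, 172.5, 129, 155.5 and 145 CPM. Serotonin valves 1, 2, 4 and 5 lay above all non-treated valves, and serotonin valve 3 lay within their range. With pergolide this row gave 112, 117, 114, 101 and 112 CPM. With dexfenfluramine it gave 92.5, 104.6, 104, 106 and 104.7 CPM. The drug valves again lay below all others, but by a smaller margin than at the first row. The second row differed from non-treated valves by 0.25 ± 0.075 (SE) on the log2 scale with serotonin, by -0.19 ± 0.075 (SE) with pergolide and by -0.31 ± 0.075 (SE) with dexfenfluramine. It stands just outside the choice of genes, since only the study's serotonin list names it. That list holds changed genes, which favours a difference with serotonin at this row.

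HNRNPH3, an H/F protein linked to splicing, stood at 265, 245, 226, 250 and 226 CPM in non-treated valves 1 to 5. In the serotonin valves it stood at 270, 305, 220, 271 and 269.6 CPM. Serotonin valves 1, 2, 4 and 5 lay above all non-treated valves, and serotonin valve 3 lay below all of them. With pergolide HNRNPH3 stood at 117, 121.5, 124, 119 and 105 CPM. With dexfenfluramine it stood at 117, 111, 107, 132 and 143 CPM. Every drug valve lay below every non-treated and serotonin valve, and the dexfenfluramine valves were the more scattered of the drug groups, with valves 4 and 5 above all pergolide valves. The log2 difference from non-treated valves was 0.14 ± 0.09 (SE) with serotonin, -1.05 ± 0.09 (SE) with pergolide and -0.99 ± 0.09 (SE) with dexfenfluramine.

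**Figure D1:**
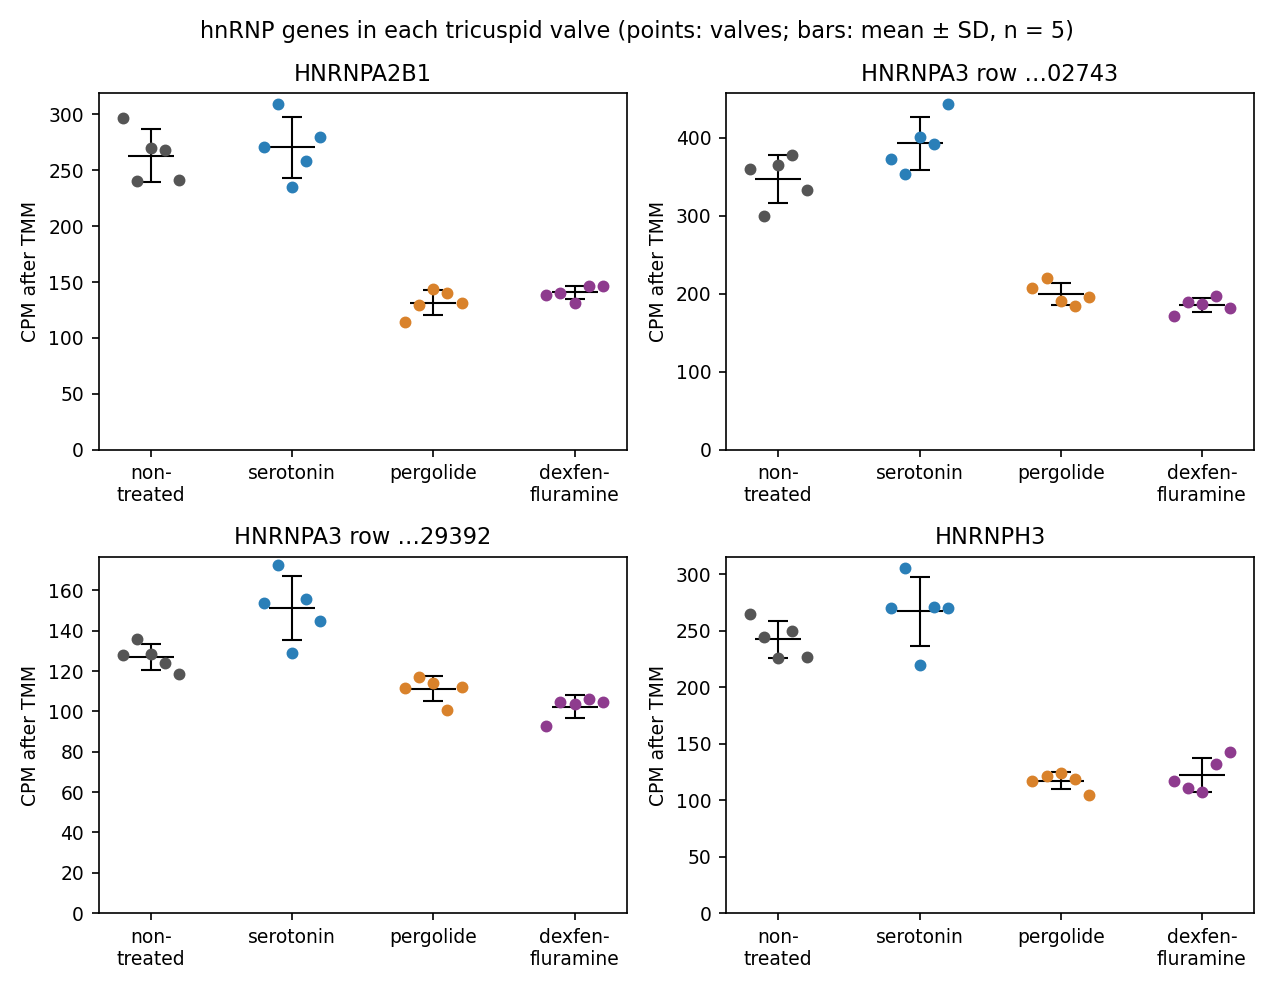
CPM after TMM (y axis, from 0) of HNRNPA2B1, of each HNRNPA3 row and of HNRNPH3 in each of the 20 valves, by group (x axis), with points for valves and bars for the mean ± SD (n = 5). In each panel the 10 drug valves lie below the 10 non-treated and serotonin valves, by the smallest margin at the second HNRNPA3 row, whose direction turns when total counts replace TMM.

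By TMM neither drug group overlapped with the non-treated group at any of the 4 rows, which the choice of the genes favours for 3 of them, while by total counts both drug groups overlapped with it at all 4 rows. Over all tested genes edgeR called 12.7% lower and 12.1% higher with pergolide, and 15.4% lower and 13.5% higher with dexfenfluramine, at an adjusted p under 0.05. With serotonin it called 1.04% higher and 0.15% lower, or 103 genes in all, a count that ran from 0 without non-treated valve 2 or 5 or serotonin valve 1 to 257 without non-treated valve 3. Among the log2 fold changes of all tested genes HNRNPA2B1 lay at percentile 2.165 with pergolide and 4.6 with dexfenfluramine, and HNRNPH3 at percentile 1.85 and 3.72. The first HNRNPA3 row lay at percentile 4.43 with pergolide and 4.55 with dexfenfluramine, and the second at percentile 31.2 and 23.8.

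Against the serotonin valves, HNRNPA2B1 differed by -1.04 on the log2 scale with pergolide and by -0.94 with dexfenfluramine. HNRNPH3 differed from serotonin by -1.19 with pergolide and by -1.13 with dexfenfluramine. The first HNRNPA3 row differed from serotonin by -0.97 with pergolide and by -1.08 with dexfenfluramine, and the second row by -0.44 and -0.56. Except at the second HNRNPA3 row, the fall after both drugs and the absence of a serotonin call enter these differences. The second row was named through the study's serotonin list. All of these differences are given with no test. They are by TMM. By total counts HNRNPA2B1 had a mean of 240.0 CPM with serotonin, 146.6 with pergolide and 182.8 with dexfenfluramine. HNRNPH3 had 236.5, 129.8 and 157.1 CPM in the same order. The first HNRNPA3 row had 353.0, 221.5 and 242.9 CPM, and the second 133.6, 123.3 and 134.0. On that scale the second row was not lower with dexfenfluramine than with serotonin.

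The size of these differences depends on how the counts are scaled. With total counts in place of TMM, an alternative chosen after seeing the data, the median log2 fold change of all tested genes moved up by 0.44 with pergolide and by 0.67 with dexfenfluramine. HNRNPA2B1 then differed from non-treated valves by -0.55 with pergolide and -0.23 with dexfenfluramine, HNRNPH3 by -0.60 and -0.32, and the first HNRNPA3 row by -0.36 and -0.23. At the second HNRNPA3 row the sign changed, to 0.24 with pergolide and 0.36 with dexfenfluramine. On that scale HNRNPA2B1 ran from 156 to 336 CPM in non-treated valves and from 157 to 225 CPM with dexfenfluramine, so the groups overlapped. Non-treated valve 3 stood apart on that scale, with HNRNPA2B1 at 336 CPM beside 156 to 197 in the other 4. Without it, also chosen after seeing the data, the total-count values of HNRNPA2B1 were -0.33 with pergolide and -0.01 with dexfenfluramine, those of the first HNRNPA3 row -0.12 and 0.01, those of the second 0.45 and 0.57, and those of HNRNPH3 -0.43 and -0.15. With every valve kept and the most abundant gene left out of the totals, HNRNPA2B1 differed by -0.70 with pergolide and -0.47 with dexfenfluramine, and the second HNRNPA3 row by 0.09 and 0.12. For serotonin the total-count values were 0.16 for HNRNPA2B1, 0.31 and 0.36 for the HNRNPA3 rows and 0.27 for HNRNPH3. Without non-treated valve 3 they were 0.38, 0.55, 0.565 and 0.435 in the same order.

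A change of scaling moves all genes of a valve nearly alike, so values relative to the median of all tested genes are almost fixed by construction, and they are given only to set each row against the other genes. For HNRNPA2B1 the value relative to the median was -1.02 by TMM and -1.01 by total counts with pergolide, and -0.94 and -0.93 with dexfenfluramine. For HNRNPH3 it was -1.07 and -1.06 with pergolide, and -1.02 by either scaling with dexfenfluramine. The first HNRNPA3 row stood at -0.82 by either scaling with pergolide, and at -0.94 and -0.92 with dexfenfluramine. The second HNRNPA3 row stood at -0.21 and -0.22 with pergolide, and at -0.34 by either scaling with dexfenfluramine. The amount of RNA per cell was not measured on an absolute scale.

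**Figure D2:**
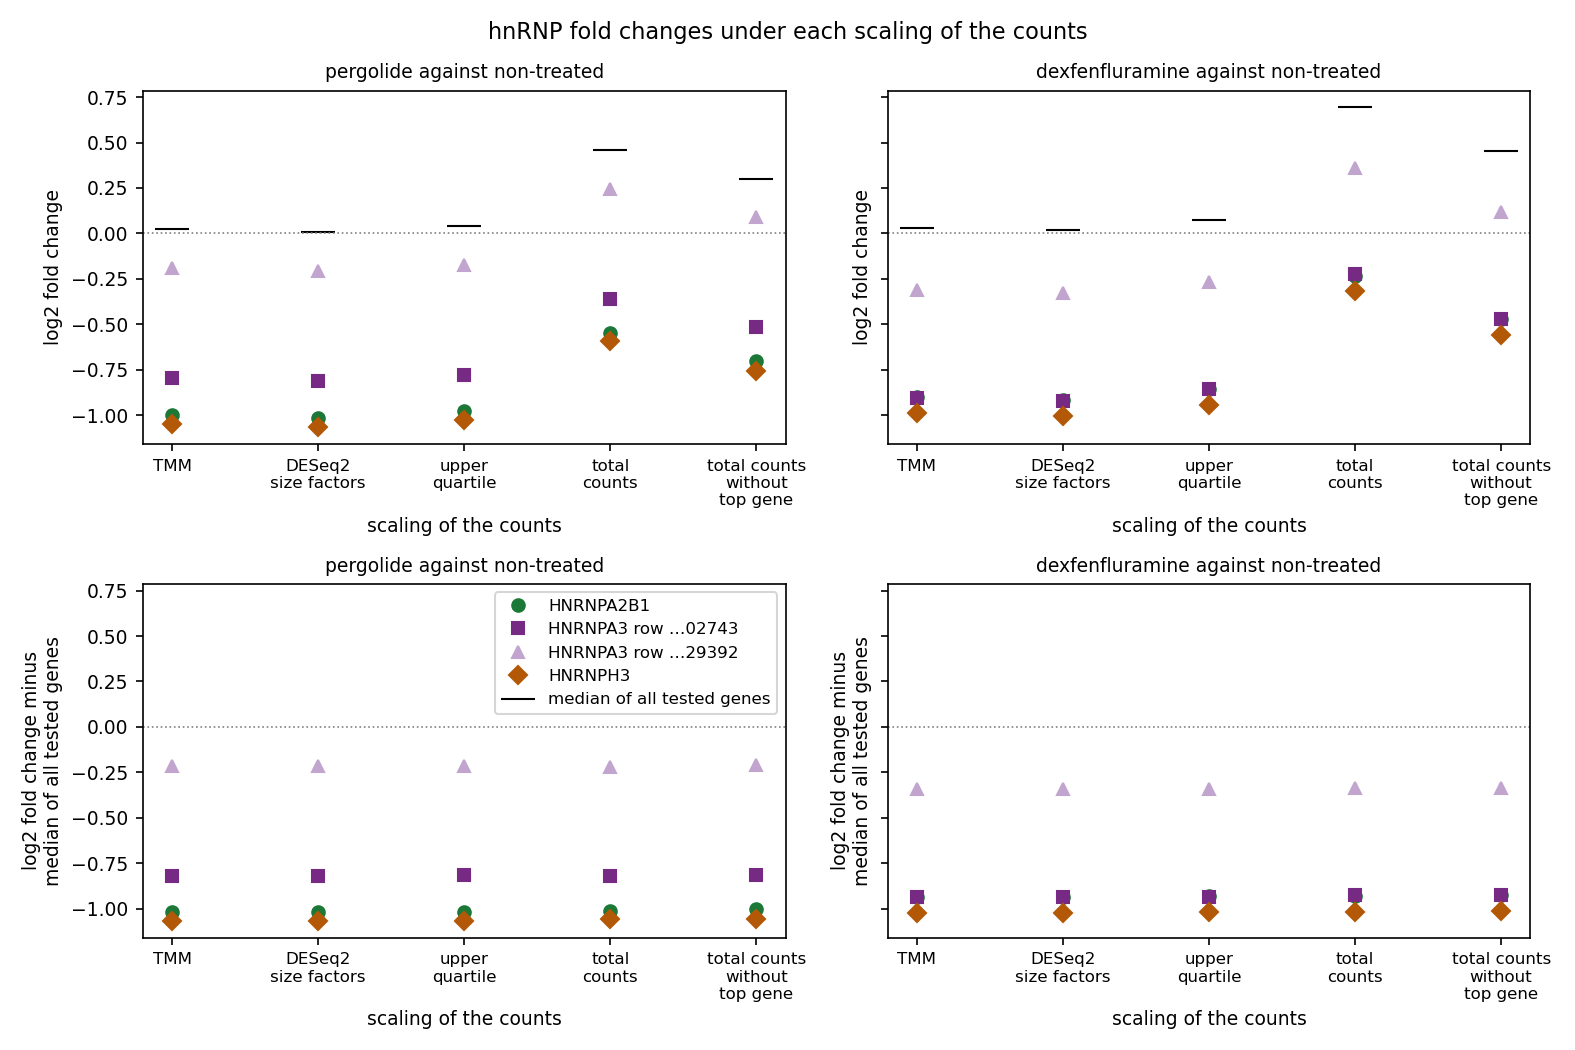
Log2 fold change of each hnRNP row against non-treated valves (y axis, upper panels) and the same minus the median of all tested genes (lower panels) under 5 scalings of the counts (x axis), for pergolide (left) and dexfenfluramine (right). Total counts lift the median of all tested genes (short lines) to 0.46 with pergolide and 0.70 with dexfenfluramine and turn the sign of the second HNRNPA3 row, while the values relative to the median are nearly fixed by construction.

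The HNRNPA3 rows moved unequally, and the ratio of their counts within a valve does not depend on scaling. The count of the second row divided by that of the first was 0.355, 0.453, 0.352, 0.329 and 0.356 in non-treated valves 1 to 5. In serotonin valves it was 0.411, 0.487, 0.321, 0.397 and 0.327. The serotonin range enclosed the non-treated range. With pergolide the ratio was 0.538, 0.531, 0.598, 0.545 and 0.575. With dexfenfluramine it was 0.539, 0.551, 0.554, 0.540 and 0.576. Every drug valve lay above every non-treated and serotonin valve. The mean ratio was 0.369 ± 0.0482 (SD, n = 5) without treatment, 0.389 ± 0.0683 (SD, n = 5) with serotonin, 0.557 ± 0.0282 (SD, n = 5) with pergolide and 0.552 ± 0.0148 (SD, n = 5) with dexfenfluramine. The ratio joins a row chosen for its fall with a row named only by the study's serotonin list. Both choices bear on the ratio, so it has no test. By TMM the summed CPM of both rows was 474 ± 29.1 (SD, n = 5) without treatment, 544 ± 26.2 (SD, n = 5) with serotonin, 311 ± 19 (SD, n = 5) with pergolide and 288 ± 14.6 (SD, n = 5) with dexfenfluramine. The sum, unlike the ratio, depends on scaling. By total counts the first row had a mean of 284.3 CPM without treatment, 353.0 with serotonin, 221.5 with pergolide and 242.9 with dexfenfluramine. The second row had 104.3, 133.6, 123.3 and 134.0 CPM in the same order, and so was higher with both drugs than without treatment.

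The RefSeq annotation of another rabbit assembly, mOryCun1.1, holds 1 gene named HNRNPA3, and it cannot be said which row is that gene. Reads of near-identical copies can be split between rows or left uncounted, and the treatment of multiply aligned reads is not given in the sources used here, so the values of both HNRNPA3 rows are uncertain in that respect. In the same annotation HNRNPA2B1 overlaps NFE2L3 on one side and CBX3 on the other, and HNRNPH3 overlaps PBLD and is followed by RUFY2. HNRNPA3 lies next to NFE2L2. No symbol of these neighbours could be matched to the counts, and they were not analysed here. Reads were counted by HTSeq in union mode, in which a read that overlaps more than 1 gene is not counted. The strand setting is not given, so it is not known whether overlaps with genes on the opposite strand count in this way.

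**Figure D3:**
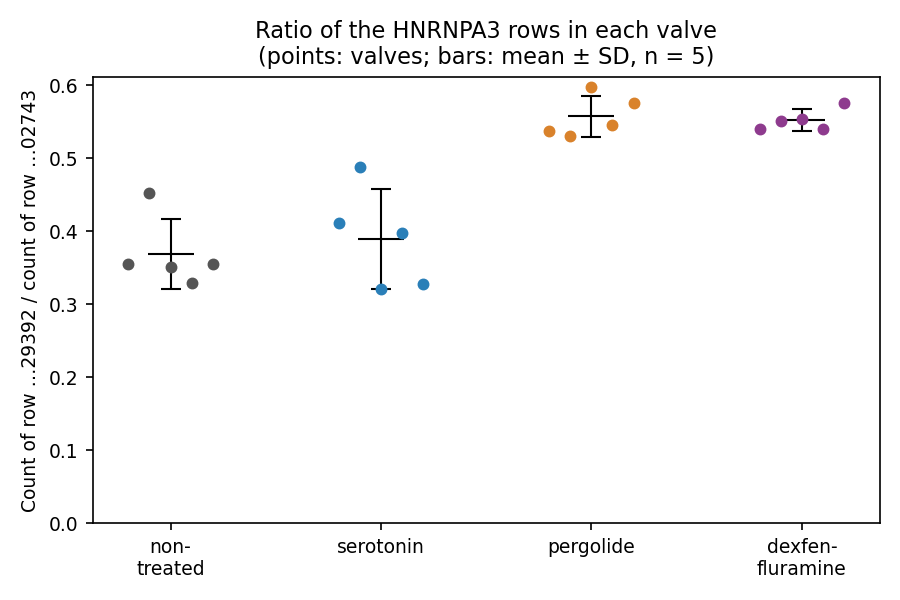
Count of the second HNRNPA3 row divided by the count of the first (y axis, from 0) in each of the 20 valves, by group (x axis), with points for valves and bars for the mean ± SD (n = 5). The 10 drug valves lie between 0.531 and 0.598, all above the highest non-treated valve at 0.453 and the highest serotonin valve at 0.487.

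Dexfenfluramine was compared with pergolide directly, which addresses whether they moved the hnRNPs by different amounts. The genes were chosen by a fall after both drugs, which favours a small difference between them, so the differences are given as a description with no test. Over all tested genes edgeR called 0% (0 genes) at an adjusted p under 0.05, with 613 genes at an unadjusted p under 0.05, while DESeq2 called 4 and limma-voom 0. By TMM, HNRNPA2B1 was 1.07 times as high with dexfenfluramine as with pergolide (log2 difference 0.10, 95% interval -0.08 to 0.27), and 2 of 5 dexfenfluramine valves lay above all pergolide valves. The first HNRNPA3 row was 0.928 times as high (log2 difference -0.11, 95% interval -0.27 to 0.06), with 2 dexfenfluramine valves below all pergolide valves. The second HNRNPA3 row was 0.921 times as high (log2 difference -0.12, 95% interval -0.28 to 0.04), with 1 dexfenfluramine valve below all pergolide valves. HNRNPH3 was 1.04 times as high (log2 difference 0.06, 95% interval -0.13 to 0.25), with 2 dexfenfluramine valves above all pergolide valves. The difference of HNRNPH3 was -0.005 without dexfenfluramine valve 5, which held the highest value of that group. By total counts the differences were 0.32 for HNRNPA2B1, 0.13 and 0.12 for the HNRNPA3 rows, which turned in sign but lay at 0.01 and -0.001 without dexfenfluramine valve 3, and 0.28 for HNRNPH3, while the median of all tested genes moved up by 0.23. Nothing here shows that the drugs act alike.

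The hnRNP rows were among the more abundant and less variable genes. Their mean log2 CPM lay at percentile 95 for HNRNPA2B1, 96.9 for the first HNRNPA3 row, 90.9 for the second and 94.3 for HNRNPH3. Their biological coefficient of variation, the spread between valves of a group beyond counting error, was 0.103 for HNRNPA2B1, 0.101 and 0.09 for the HNRNPA3 rows and 0.111 for HNRNPH3, against a median of 0.154 over all tested genes.

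Within groups, HNRNPA2B1 and HNRNPH3 deviated together. Over the 20 valves the deviations of their log2 CPM from the group means had a Pearson r of 0.64. Over raw log2 CPM r was 0.78 in the 10 non-treated and serotonin valves and 0.48 in the 10 drug valves. Every r given here for the 10 drug valves or the 10 others is over raw log2 CPM, and so includes differences between the groups pooled. HNRNPA2B1 and the first HNRNPA3 row had an r of -0.03 between deviations, with -0.56 in the 10 drug valves and 0.23 in the 10 others. The HNRNPA3 rows had an r of -0.11 between deviations, with 0.85 in the drug valves and 0.19 in the others. Between the second HNRNPA3 row and HNRNPH3 r was 0.55 between deviations, but 0.005 in the drug valves and 0.84 in the others. Whether r differs between the drug valves and the others was not tested. All genes of a valve share its library and its scaling factor, which can make deviations move together, and these values are descriptions.

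By the highest Pearson r over the 20 valves among 3512 other tested genes with a symbol, the genes most like HNRNPA2B1 were ANP32E (r = 0.98), FAM71F1, HNRNPU, TAF15 and RNF214 (each r = 0.97). Within the 10 drug valves r was 0.75 for HNRNPU and 0.66 for FAM71F1, but 0.17 for ANP32E and 0.09 for RNF214, and within the 10 others it was 0.755, 0.59, 0.78 and 0.80 in the same order. Among those most like the first HNRNPA3 row were Prpf18 and ZC3H13 (each r = 0.97), followed by a gene listed as AABR07053179.1 and HNRNPDL (each r = 0.96). Those most like HNRNPH3 were ANP32E (r = 0.99), TAF3 and TAF15 (each r = 0.98), then LSY1 and PAIP2 (each r = 0.97). For ANP32E with HNRNPH3, r was 0.425 within the drug valves and 0.95 within the others. The part of the gap between the drug groups and the others in these correlations was not tested. The second HNRNPA3 row was most like HMG5 (r = 0.96), SSB and ROCK1 (each r = 0.96), then ARL1 and CWF19L2 (each r = 0.95). For HMG5 r was 0.92 within the 10 drug valves and 0.93 within the 10 others.

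The other hnRNP family genes were counted from a list of 30, of which 15 had a symbol in the counts and 14 were tested. With pergolide 4 rose and 8 fell, and with dexfenfluramine 5 rose and 9 fell, at an adjusted p under 0.05 over all tested genes, of which 12.1% rose and 12.7% fell with pergolide and 13.5% rose and 15.4% fell with dexfenfluramine. The median log2 fold change of the list was -0.31 with pergolide and -0.35 with dexfenfluramine, beside 0.02 and 0.03 over all tested genes. Because the symbols come from the study's lists of genes changed in these same valves, a tested family gene had mostly been selected for a change, and the counts are not independent evidence of a family response. With serotonin edgeR called 0 of the 14, with 7 at an unadjusted p under 0.05 (103 and 1372 of the 8683 tested genes), while DESeq2 called 3 and limma-voom 1, and the list median was 0.05. Between dexfenfluramine and pergolide edgeR called 0 of the 14, with 0 at an unadjusted p under 0.05.

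The direction of the family depends on scaling. By total counts 5 family genes rose and 0 fell with pergolide, and 6 rose and 0 fell with dexfenfluramine. Over all tested genes the split also turned, from 1052 risen and 1105 fallen to 2288 and 87 with pergolide, and from 1175 and 1335 to 4983 and 118 with dexfenfluramine. Without non-treated valve 3 total counts called 4963 genes with pergolide and 6631 with dexfenfluramine. By TMM, 9 of the 14 lay below the median of all tested genes and 5 above it with each drug, a split that a change of scaling can hardly alter.

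Of the A/B-type relatives, HNRNPAB, which binds both RNA and DNA, fell by TMM. It stood at 165 ± 28.1 CPM (SD, n = 5) in non-treated valves, at 90.2 ± 3.3 CPM (SD, n = 5) after pergolide and at 86.9 ± 8.51 CPM (SD, n = 5) after dexfenfluramine. Its log2 fold changes were -0.87 (edgeR adjusted p = 1.55e-05) and -0.92 (edgeR adjusted p = 7.84e-06), the lowest of the list, and 0.32 with serotonin (edgeR adjusted p = 0.155), while by total counts its drug values were -0.38 and -0.215. HNRNPDL, a relative of HNRNPD, also fell by TMM. Its level was 187 ± 10.7 CPM (SD, n = 5) in non-treated valves, 110.1 ± 4.98 CPM (SD, n = 5) after pergolide and 114 ± 18.5 CPM (SD, n = 5) after dexfenfluramine, and by total counts its log2 fold changes were -0.33 and -0.03. HNRNPD, known as AUF1 and a regulator of mRNA decay through AU-rich elements, fell by TMM by 0.35 with pergolide and by 0.33 with dexfenfluramine on the log2 scale, but by total counts its values were 0.08 and 0.33. With serotonin HNRNPD had a log2 fold change of 0.32 by TMM (edgeR adjusted p = 0.0509). HNRNPM fell by TMM by 0.67 with pergolide and by 0.64 with dexfenfluramine on the log2 scale, and by total counts its dexfenfluramine value was 0.03. HNRNPU, a scaffold protein of the nuclear matrix, fell by TMM by 0.41 with pergolide and by 0.37 with dexfenfluramine, but by total counts its values were 0.05 and 0.32.

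Among the family genes that rose were HNRNPLL, a regulator of alternative splicing in lymphocytes, and the polypyrimidine tract binding proteins PTBP3 and PTBP2. HNRNPLL stood at 19.9 ± 5.21 CPM (SD, n = 5) in non-treated valves, at 37 ± 2.88 CPM (SD, n = 5) after pergolide and at 34.8 ± 4.74 CPM (SD, n = 5) after dexfenfluramine, with log2 fold changes of 0.88 and 0.79. PTBP3 rose by 0.59 with pergolide and 0.72 with dexfenfluramine on the log2 scale, and PTBP2 by 0.38 and 0.46. By total counts the values were higher, at 1.27 and 1.43 for HNRNPLL, 1.01 and 1.39 for PTBP3 and 0.81 and 1.14 for PTBP2, as the median of all tested genes also rose. No row could be matched for the relatives HNRNPA0, HNRNPF, HNRNPH1 and HNRNPH2, and the listed id of HNRNPA1 fits several rows, so these were not analysed here. HNRNPH3 thus stands without its nearest H/F relatives in these values.

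**Figure D4:**
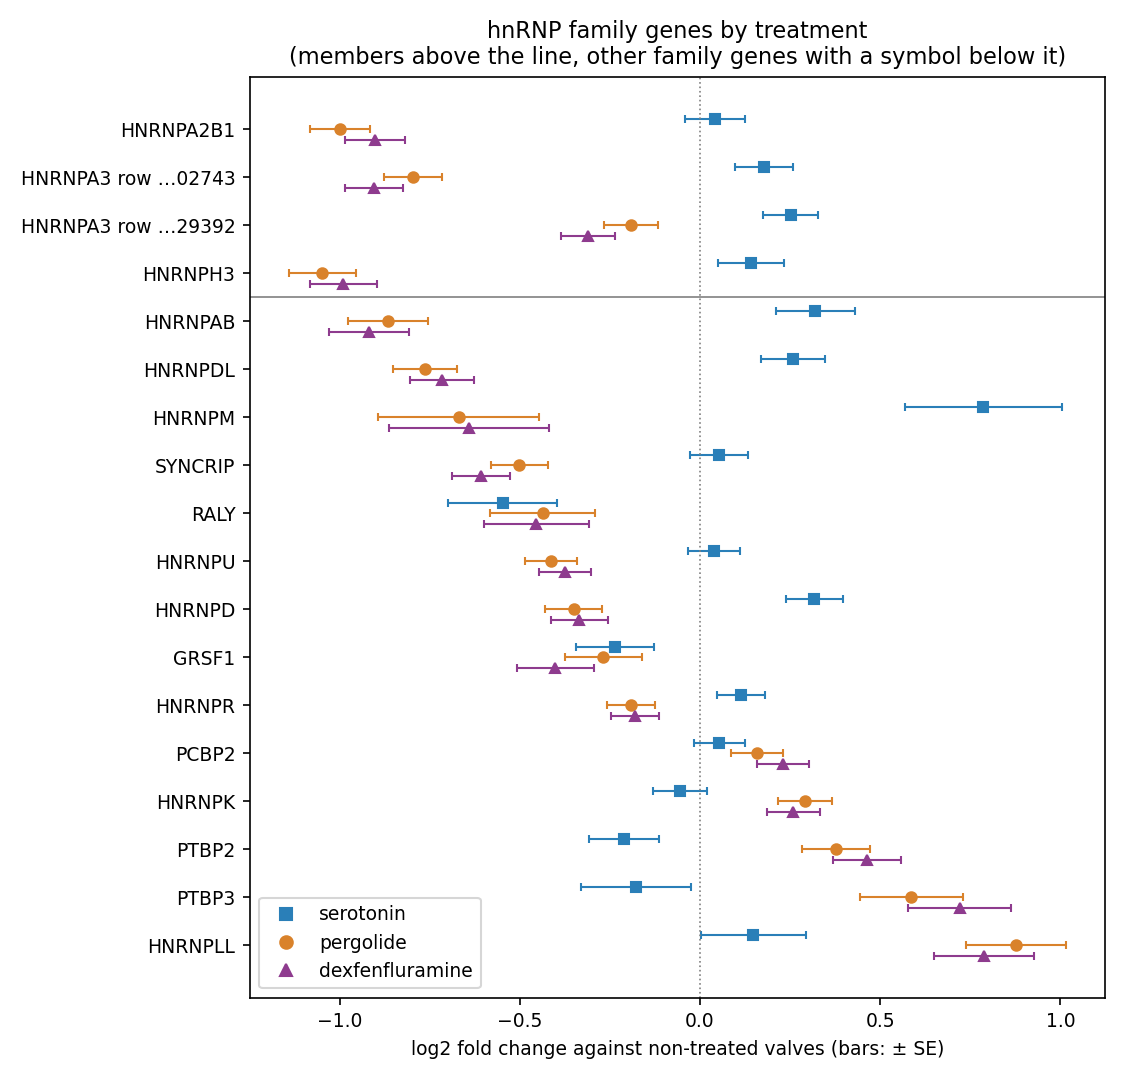
Log2 fold change against non-treated valves by TMM (x axis, bars ± SE) of the hnRNP rows described here (above the line) and of the 14 other tested family genes with a symbol (below it), for serotonin, pergolide and dexfenfluramine. With the drugs the values run from -1.05 for HNRNPH3 to 0.88 for HNRNPLL, and by total counts the sign of 5 of the 14 family genes turns with pergolide and of 7 with dexfenfluramine.

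SR proteins, the splicing activators that hnRNP A/B proteins often oppose, were counted together with their kinases. Of 21 listed genes 10 were tested, of which 3 rose and 5 fell with pergolide and 4 rose and 5 fell with dexfenfluramine by TMM, and by total counts the sign turned for 4 and 5 of them. Over all tested genes 12.1% rose and 12.7% fell with pergolide, and 13.5% rose and 15.4% fell with dexfenfluramine. The list was selected through the study's lists in the same way. Its median log2 fold change was -0.04 with pergolide and -0.06 with dexfenfluramine. Srsf11 fell by 0.73 and 0.56 on the log2 scale by TMM and SRSF4 by 0.33 and 0.52, with pergolide and dexfenfluramine in that order, while by total counts SRSF4 turned with both drugs and Srsf11 with dexfenfluramine. The kinases CLK1 and SRPK1, which phosphorylate SR proteins, rose by 0.40 and 0.42 and by 0.38 and 0.29 by TMM, and by total counts their values were 0.82 and 1.08 and 0.81 and 0.97. With serotonin edgeR called 0 of the 10, with 3 at an unadjusted p under 0.05, beside 103 and 1372 of the 8683 tested genes.

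Of 20 listed partners of hnRNP A/B proteins, 5 were tested. With pergolide 0 rose and 3 fell, and with dexfenfluramine 1 rose and 3 fell by TMM, and by total counts the sign turned for 1 and 3 of them. With each valve left out in turn, the count of 4 partners called with dexfenfluramine fell to between 2 and 3. These genes too had a symbol only through the study's lists of changed genes, and over all tested genes 12.1% rose and 12.7% fell with pergolide and 13.5% rose and 15.4% fell with dexfenfluramine. YTHDC1, the nuclear reader of methylated adenosine, fell by 0.52 with pergolide and 0.53 with dexfenfluramine on the log2 scale by TMM, with a dexfenfluramine value of 0.15 by total counts. DROSHA, the nuclease of the microprocessor, fell by 0.42 and 0.27 by TMM, with values of 0.03 and 0.42 by total counts. The arginine methyltransferase PRMT3 had log2 fold changes of 0.35 (edgeR adjusted p = 0.0567) and 0.38 (edgeR adjusted p = 0.0386). The demethylase FTO had log2 fold changes of 0.20 (edgeR adjusted p = 0.107) and 0.22 (edgeR adjusted p = 0.0645), and with serotonin edgeR called 0 of the 5, with 1 at an unadjusted p under 0.05, beside 103 and 1372 of the 8683 tested genes. By total counts the values of PRMT3 were 0.76 and 1.005 and those of FTO 0.66 and 0.92.

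Markers of cell types also differed between groups. All marker values here are by TMM, and no total-count values are given for them. By total counts the median log2 fold change of all tested genes moved up by 0.12 with serotonin, 0.44 with pergolide and 0.67 with dexfenfluramine. On that scale falls of markers would be smaller and rises larger. The summed CPM of the 7 interstitial cell markers was 6836, 6110, 7519, 5069 and 5490 in non-treated valves 1 to 5. It was 7131, 5660, 7534, 6918 and 7004 with serotonin. With pergolide it was 7259, 8091, 6886, 8758 and 10440, and with dexfenfluramine 8437, 9139, 10780, 7627 and 8483. The dexfenfluramine valves lay above all non-treated valves, and the pergolide valves overlapped with them. VIM, the largest part of the sum, had a log2 fold change of -0.08 with pergolide (edgeR adjusted p = 0.805) and 0.37 with dexfenfluramine (edgeR adjusted p = 0.161). By TMM 5 of the 7 markers rose and 0 fell with pergolide, and 4 rose and 0 fell with dexfenfluramine, where 12.1% and 13.5% of all tested genes rose. The markers were selected through the study's lists of changed genes. Those that rose were LUM with pergolide, and PDGFRB and the collagen genes with both drugs. The collagen gene COL3A1 rose by 1.001 with pergolide and 0.95 with dexfenfluramine on the log2 scale, COL1A1 by 1.07 and 1.15, and COL1A2 by 0.91 and 0.96.

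The summed CPM of the 7 cardiomyocyte markers was 139400, 103600, 48080, 147100 and 94340 in non-treated valves 1 to 5. It was 51960, 101600, 58540, 94510 and 61800 with serotonin. With pergolide it was 80250, 90000, 90320, 51340 and 46810, and with dexfenfluramine 69060, 51130, 12160, 59060 and 69390. The sums of all groups overlapped, and non-treated valve 3 and dexfenfluramine valve 3 were the lowest of their groups. TTN carries most of the sum, with log2 fold changes of -0.44 (edgeR adjusted p = 0.41) with pergolide and -0.89 (edgeR adjusted p = 0.0804) with dexfenfluramine. By TMM all 7 markers had negative values with serotonin and with both drugs, and their median was -0.535 after serotonin, -0.50 after pergolide and -1.01 after dexfenfluramine. At an adjusted p under 0.05, 0 fell with serotonin, and 1 fell with pergolide and 3 with dexfenfluramine, where 12.7% and 15.4% of all tested genes fell. The troponin T gene TNNT2 had log2 fold changes of -2.27 (edgeR adjusted p = 0.00109) with pergolide and -2.79 (edgeR adjusted p = 0.000191) with dexfenfluramine. With dexfenfluramine the value of TNNC1 was -1.84 (edgeR adjusted p = 0.0084) and that of MYH7 -1.45 (edgeR adjusted p = 0.0181). In non-treated valve 3 the log2 level of HNRNPA2B1 differed from the mean of the other 4 by 0.05 and that of HNRNPH3 by -0.12, and by TMM its hnRNP values lay within the range of the other non-treated valves or, for HNRNPH3, just under it. By total counts it was the highest non-treated valve at all 4 rows.

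The summed CPM of the 2 endothelial markers was 257, 314, 322, 135 and 303 in non-treated valves 1 to 5. It was 259, 325, 336, 277 and 284.5 with serotonin. With pergolide it was 216.5, 149, 117, 194 and 148, and with dexfenfluramine 170.4, 204.7, 264, 201.1 and 232. The serotonin valves lay above all pergolide valves, while non-treated valve 4 lay within the pergolide range. By TMM both markers, PECAM1 (edgeR adjusted p = 0.0123) and EMCN (edgeR adjusted p = 0.0302), fell with pergolide and 0 were called with dexfenfluramine. Adipocyte sums ran from 21.9 to 70 CPM without treatment, from 28.5 to 133 with serotonin, from 55.6 to 176 with pergolide and from 3.24 to 100.2 with dexfenfluramine. All 3 adipocyte markers, ADIPOQ, LEP and CIDEA, rose with pergolide (edgeR adjusted p = 0.0426, 0.0241 and 0.00324), and 0 were called with dexfenfluramine. Smooth muscle sums ran from 243 to 644 CPM without treatment, from 294 to 478 with serotonin, from 363 to 446.5 with pergolide and from 119 to 489.9 with dexfenfluramine. DES carried most of this sum, at 379 CPM of a mean of 428 without treatment. Non-treated valve 3 and dexfenfluramine valve 3 were the lowest of their groups, as in the cardiomyocyte sum. In the serotonin and pergolide groups the lowest valves of these sums differed. Of the 3 smooth muscle markers TAGLN rose with both drugs and MYH11 fell with dexfenfluramine. MCM2 ran from 1.63 to 4.33 CPM without treatment, from 3.21 to 5.63 with serotonin, from 4.21 to 4.6 with pergolide and from 3.35 to 5.61 with dexfenfluramine, and it rose with dexfenfluramine (edgeR adjusted p = 0.0484). With serotonin 0 markers of any list were called. These markers too were matched only through the study's lists of changed genes, and over all tested genes 12.1% rose and 12.7% fell with pergolide and 13.5% rose and 15.4% fell with dexfenfluramine. The part of cell composition in the hnRNP results was not tested.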

How the data were processed

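Tricuspid valves of 20 rabbits in 4 groups of 5 were used. The values are read counts per Ensembl gene as deposited by the authors, who depleted ribosomal RNA, sequenced stranded libraries, aligned the reads to oryCun2 and counted them in union mode; the submitters' processing notes name TopHat2 2.1.1, Picard and HTSeq. The annotation release, strand setting and handling of multiply aligned reads are not given in the sources used here. Columns were matched to samples by label, and 0 columns were left unused.

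Counts were scaled by TMM and filtered by filterByExpr with the 4 groups in edgeR 4.0.16 (R 4.3.3), leaving 8683 genes. All 20 valves entered one quasi-likelihood fit with group as the only term, and p-values were adjusted by the Benjamini-Hochberg method over all tested genes, with a threshold of 0.05. The direct comparison of the drugs was planned as a test, but is given for the hnRNP rows without p-values, since the choice used both drugs. Log2 CPM used a prior count of 2. Intervals are 95%. The scripts were tested on simulated data. Alternatives were other scalings (DESeq2 1.42.0 size factors, upper quartile), no filter or 10 counts in every valve, DESeq2, limma-voom (limma 3.58.1) without and with svaseq variables (sva 3.50.0), a replicate block, fits of only the groups compared, each valve left out in turn, and, added after seeing the data, total counts with and without the most abundant gene, and total counts with each valve left out in turn. Figures were drawn with matplotlib 3.10.9 (Python 3.11.15).

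Members and lists were chosen with earlier results of these data known. Named genes are every row of the 3 symbols, their nearest relatives, the 3 lowest and 3 highest other family genes by mean drug fold change, the 5 genes most correlated with each row, annotated neighbours, the 2 lowest and 2 highest SR and partner genes, and the most abundant and absent markers. DROSHA and the markers COL3A1, COL1A1, COL1A2, LUM, PDGFRB, TNNT2, TNNC1, MYH7, EMCN, LEP, CIDEA, TAGLN and MYH11, outside this rule, were named after their values were seen, and 2 genes that the rule takes in are not reported here. Symbols were taken from the study's supplementary lists by gene id, without their values, and neighbours from RefSeq mOryCun1.1. No sequence is shown.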

Additional observations from a re-analysis of the deposited data

Results flagged for a closer look

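The second HNRNPA3 row (ENSOCUG00000029392) stood at 92.5 CPM in dexfenfluramine valve 1, apart from the other dexfenfluramine valves, which ran from 104 to 106 CPM. The gap to the nearest valve was 0.813 of the range of the group, above Dixon's 95% critical value for 5 valves. Chance flags about 1 in 20 groups, and 16 groups were looked at. The first HNRNPA3 row was also lowest in this valve within its group, at 171.5 CPM, so the ratio of the rows there, 0.539, was like that of the other dexfenfluramine valves.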

How the results depend on the processing

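Under the settings other than total counts, 300 of 304 values of the hnRNP log2 fold changes moved by less than the spread between valves or kept their direction and side of the threshold, and all 152 of these values for a drug against non-treated valves were below 0. With svaseq variables HNRNPH3 was -0.88 with pergolide and -0.75 with dexfenfluramine, the second HNRNPA3 row was -0.18 with dexfenfluramine, 1156 genes were called for pergolide and 987 for dexfenfluramine, the family count was 8 for dexfenfluramine and 2 for serotonin, and the SR count was 4 for pergolide, 3 for dexfenfluramine and 1 for serotonin. With total counts the log2 fold changes for pergolide were -0.55 (HNRNPA2B1), -0.36 and 0.24 (HNRNPA3 rows) and -0.60 (HNRNPH3), and for dexfenfluramine -0.23, -0.23, 0.36 and -0.32. Of the valves left out in turn, non-treated valve 3 moved these values the most: without it, also added after seeing the data, they were -0.333, -0.124, 0.449 and -0.43 for pergolide and -0.014, 0.009, 0.569 and -0.154 for dexfenfluramine, and total counts then called 373 genes for serotonin, 4963 for pergolide and 6631 for dexfenfluramine, with 2 family genes for serotonin and 6 for pergolide. Leaving out any other valve kept the sign of all these total-count values, with HNRNPA2B1 from -0.646 to -0.493 for pergolide and from -0.328 to -0.183 for dexfenfluramine. With every valve kept and the most abundant gene left out they were -0.70, -0.51, 0.089 and -0.76 for pergolide and -0.47, -0.47, 0.12 and -0.56 for dexfenfluramine. Between the drugs the HNRNPA3 rows reversed to 0.13 and 0.12 with total counts and to 0.043 and 0.03 without that gene, and HNRNPA2B1 went from 0.10 to 0.32 and HNRNPH3 from 0.06 to 0.28 with total counts. Without dexfenfluramine valve 3 the HNRNPA3 rows were then at 0.014 and -0.001. These shifts follow from the scaling itself, which moved the median of all genes. Total counts called 5101 genes for dexfenfluramine, 5 family genes for pergolide and 6 for dexfenfluramine, 5 SR genes for either drug and 2 partners for dexfenfluramine. Without the most abundant gene, total counts called 7 family genes for pergolide and 6 for dexfenfluramine. The counts were then 5 SR genes for either drug and 2 partners for dexfenfluramine. The 2 partners were also the count with no filter, with svaseq variables and with only the groups compared. The serotonin count of 103 genes was 53 with DESeq2 size factors, 48 with no filter, 58 with 10 counts in every valve, 234 with DESeq2, 2 with total counts, 19 without the most abundant gene and 0 with only the groups compared. DESeq2 called 3 family genes for serotonin, limma-voom called 1, and DESeq2 called 4 genes between the drugs. The cause of the changes with tool or svaseq was not tested.

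By TMM, leaving out each valve gave 0 to 257 genes for serotonin: 0 without non-treated valve 2 or 5 or serotonin valve 1, 3 without non-treated valve 4, 4, 21 and 50 without serotonin valves 2, 4 and 5, and 257 without non-treated valve 3. For serotonin the family count then ran from 0 to 2 and the SR count from 0 to 1, and for dexfenfluramine the partner count ran from 2 to 3. Between the drugs HNRNPH3 ran from -0.005, without dexfenfluramine valve 5, to 0.10. With a replicate block the serotonin count was 1 gene. Of 30 pairs of valves that share a number, 6 had a correlation of deviations over 0.1, in a range from -0.34 to 0.49. All 6 were pairs of valves 3 or 4 among the non-treated, serotonin and dexfenfluramine groups. Pergolide valves 3 and 4 had negative values with the same numbers of those groups. These correlations cannot exclude that the numbers mark a pairing or a shared batch, so that remains unknown.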
